A study of Mus musculus with 20 samples.

Results

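The 10 acute-phase genes described here are Saa1, Saa2, Saa3, Lcn2, Hp, Orm1, Lbp, Serpina3n, Cp and Ptx3, chosen by name among the 37074 gene names on the array. They carried 15 of its 56605 probes (5 for Cp, 2 for Lcn2 and 1 for each other gene), and all 15 passed the filter on dim probes. RNA was taken from visceral adipose tissue (VAT) of the epididymal area of 20 F3 male C57BL/6J mice and hybridized to 1 Agilent array per mouse. Ref mice (n = 6; STD Cont in the labels) came from the control lineage, whose breeding diet carried a high-oleic sunflower oil, and ate a low-fat reference diet. HFoleic mice (n = 6; HFD Cont) came from the same lineage and ate a high-fat, high-sucrose diet. HFepa mice (n = 8; HFD O3) ate that diet too and came from a lineage bred on fish oil rich in the omega 3 fatty acid EPA. HFepa and Ref mice thus differed in both lineage and diet, no HFepa lineage mouse on the low-fat diet was analysed here, and only RNA above a quality limit had been put on arrays. The comparisons of the study ask what the obesogenic diet does in each lineage and whether the lineages differ under it.

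Acute-phase proteins are plasma proteins whose level changes during infection, injury or inflammation. Interleukin-6 acts on their genes through STAT3, and interleukin-1 and tumour necrosis factor act through NF-kB and C/EBP factors. The liver makes most of them, but adipose tissue also transcribes several, Saa3 and haptoglobin among them, and their mRNA in fat is known to rise in obese mice. Saa1, Saa2 and Saa3 encode serum amyloid A apolipoproteins, Lbp presents bacterial lipopolysaccharide to CD14, Ptx3 is a secreted pentraxin of innate immunity, Hp binds free haemoglobin, Cp is the copper-carrying ferroxidase of plasma, Lcn2 binds iron-loaded siderophores, Orm1 is a lipocalin that carries small lipophilic molecules, and Serpina3n inhibits serine proteases.

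On each array 66.06% to 71.88% of the spots exceeded background clearly, and no spot was saturated. All 12 adipocyte marker genes were well above background on every array, and their mean log2 signal lay between 15.74 and 16.18 over the 20 mice. The 3 slides held arrays of every group. Signal of other tissues was uneven. The mean of the 6 tested genes of a testis list was above 7 in 4 mice (Ref 3, Ref 6, HFoleic 5 and HFepa 4), and the mean of 12 liver genes was above 10 in 5 mice (Ref 2, Ref 6, HFoleic 6, HFepa 5 and HFepa 6). Values of the 10 genes are also given without these mice where that changes a call. Values of a gene are log2 signals after quantile normalization, and can be compared between mice but not between probes. A gene was called when its adjusted p, from the moderated test of limma and adjusted by Benjamini-Hochberg over the 39390 probes tested, was under 0.05.

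In HFoleic vs. Ref, 6 of the 10 genes rose (Saa3, Saa1, Saa2, Lbp, Serpina3n and Hp) and 1 fell (Cp), while Orm1, Ptx3 and Lcn2 were not called. Of all 25618 genes tested, 15.2% rose and 16.7% fell, so 31.8% were called in either direction. The median difference of the 10 genes was 0.73 on the log2 scale, against -0.04 over all genes. The groups did not overlap for 5 of the 10 (Saa3, Saa1, Lbp, Hp and Cp), and for 14% of all genes. In bulk tissue, fewer cells of a type and less RNA per cell cannot be told apart. Without the 4 mice high in testis genes 5 of the 10 were called, and without the 5 mice high in liver genes also 5, with Hp and Serpina3n the calls lost each time. The share of all genes called then was 18.1% and 17.4%.

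**Figure D1:**
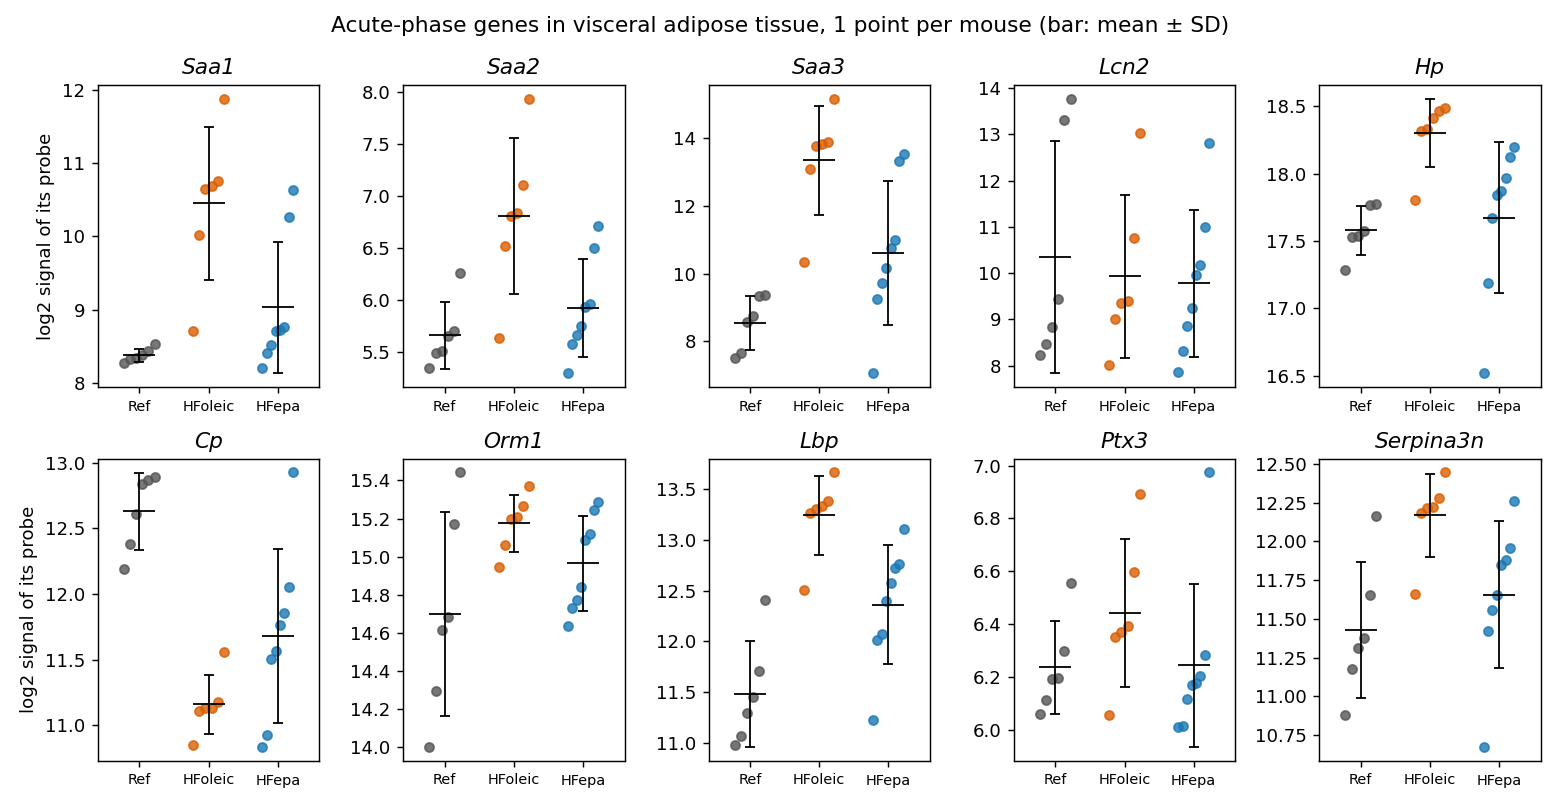
Log2 signal of the probe of each acute-phase gene (vertical axis, own scale per panel) in Ref (n = 6), HFoleic (n = 6) and HFepa (n = 8) mice; points are mice, the horizontal bar is the mean and the error bar its SD. For Saa3, Saa1, Lbp and Hp every HFoleic mouse lies above every Ref mouse, for Cp every HFoleic mouse lies below, and HFepa mice overlap both other groups in all 10 panels.

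The 3 serum amyloid A genes lie near each other on chromosome 7, and each was read by its own probe. The Saa3 probe maps to chr7:53967559-53967618 (mm9, minus strand), the Saa1 probe to chr7:53996070-53996129 (minus strand) and the Saa2 probe to chr7:54009535-54009594 (plus strand). The 60 bases below are the probes that carried the Saa3 and Saa1 values, shown because the signal is of these bases only. Whether the Saa1 and Saa2 probes also bind each other's transcript was not tested.
Saa3 probe: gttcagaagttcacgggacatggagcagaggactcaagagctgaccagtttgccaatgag
Saa1 probe: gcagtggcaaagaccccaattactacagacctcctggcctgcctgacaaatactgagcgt

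Saa3 moved furthest. Its level was 7.51 (lowest), 8.66 (median) and 9.36 (highest) in Ref mice, 10.35, 13.80 and 15.16 in HFoleic mice, and 7.05, 10.46 and 13.53 in HFepa mice. All HFoleic mice lay above all Ref mice, and the HFepa mice spread from below the lowest Ref mouse into the HFoleic range. In HFoleic vs. Ref it was 28.1-fold higher (log2 difference 4.81, SE 0.90, adjusted p = 0.00094), which placed it at rank 4 of 25618 genes by the size of the rise. Within the 3 slides the difference ranged from 4.03 to 6.65. Over all 15 alternative settings it ranged from 4.48 to 4.98 and kept its call.

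Saa1 was even in Ref mice, with values of 8.27, 8.36 and 8.53 (lowest, median and highest). It reached 8.71, 10.67 and 11.88 in HFoleic mice and 8.21, 8.72 and 10.63 in HFepa mice. The HFoleic mice again lay wholly above Ref, with the lowest of them (HFoleic 1) close to the Ref range. The rise was 4.20-fold (2.07, SE 0.43, adjusted p = 0.0018). Saa2 was dim. Its probe was well above background on 3 of the 6 Ref arrays and on all 6 HFoleic arrays, and its level was 5.34, 5.58 and 6.26 in Ref, 5.64, 6.82 and 7.94 in HFoleic and 5.29, 5.84 and 6.71 in HFepa mice. HFoleic 1 lay among the Ref mice and the other 5 HFoleic mice above them. The difference was 1.15 (SE 0.29, adjusted p = 0.0056). For this dim probe the size depended on the background treatment, from 0.85 with normexp correction to 2.0 with the processed signal.

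Before their transcription starts, the Saa genes share a short motif. RefSeq windows (GRCm38.p6) of the 250 bases before a start were found for 7 of the 10 genes, in 8 windows, Cp having 2 starts; Hp, Orm1 and Lbp are not in that table. The letters TTNNGCAA, a core that C/EBP factors bind, were searched on both strands. At least 1 match was found in 6 of the 8 windows, against 9.56% of all 32851 windows of this length. These were windows of 6 of the 7 genes, all but Serpina3n, with Cp at 1 of its 2 starts. TTCNNNGAA, the core bound by STAT3, was in none of the 8 windows and in 7.02% of all windows, and the NF-kB motif was in none and in 3.9% of all. A match is a run of letters and not a measured binding site. The Saa windows are shown because these 3 genes rose together, with the match in capitals.
Saa3, chr7:46715677-46715926, minus strand: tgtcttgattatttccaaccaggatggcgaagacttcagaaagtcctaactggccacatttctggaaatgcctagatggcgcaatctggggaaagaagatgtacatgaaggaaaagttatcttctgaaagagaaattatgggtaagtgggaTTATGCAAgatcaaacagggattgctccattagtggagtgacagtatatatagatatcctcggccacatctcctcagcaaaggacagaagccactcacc
Saa1, chr7:46742981-46743230, minus strand: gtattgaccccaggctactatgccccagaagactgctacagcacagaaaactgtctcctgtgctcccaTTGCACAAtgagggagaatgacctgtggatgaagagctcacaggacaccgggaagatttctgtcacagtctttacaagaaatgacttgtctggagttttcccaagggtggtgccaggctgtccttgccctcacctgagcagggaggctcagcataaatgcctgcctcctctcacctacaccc
Saa2, chr7:46751583-46751832, plus strand: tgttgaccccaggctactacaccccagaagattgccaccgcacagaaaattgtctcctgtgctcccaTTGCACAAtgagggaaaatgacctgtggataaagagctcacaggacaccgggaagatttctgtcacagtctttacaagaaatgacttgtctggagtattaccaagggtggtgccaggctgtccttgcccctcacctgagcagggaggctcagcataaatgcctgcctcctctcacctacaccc

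The Saa1 and Saa2 windows were 94.8% identical over their alignment, and both hold the same letters, which match the motif on the opposite strand. Their matches are thus not independent. The Saa3 window was 50.2% identical to that of Saa1 and 50.6% to that of Saa2, and its match lies nearer the start. Cp, Ptx3 and Lcn2 also hold a match, and their levels did not follow those of the Saa genes: Cp fell, and Ptx3 and Lcn2 were not called.

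**Figure D2:**
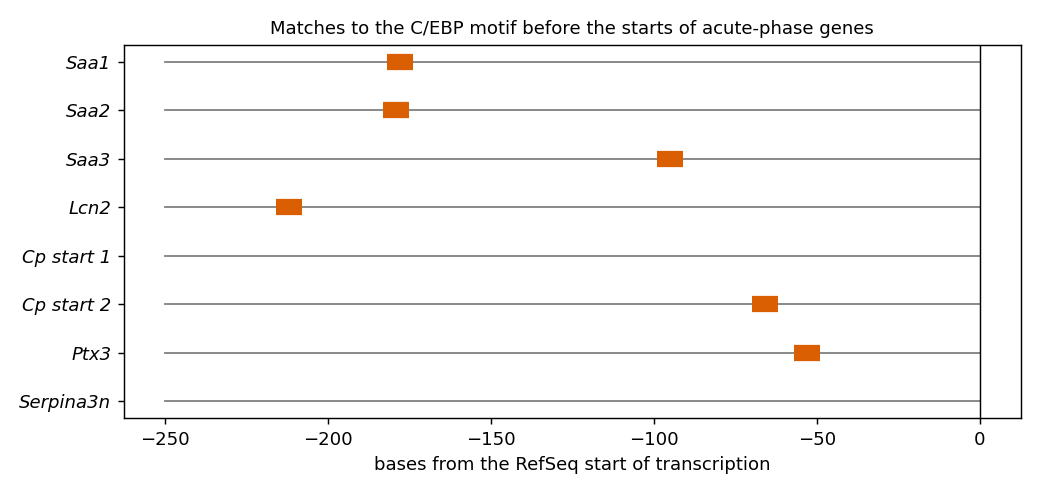
Position of each match to the C/EBP motif (orange block) in the bases before the RefSeq transcription start at 0 (horizontal axis) for the 8 windows of the 7 genes found. The matches of Saa1 and Saa2 start at -182 and -183, that of Saa3 at -99, those of Lcn2, Ptx3 and the second Cp start at -216, -57 and -70, and the first Cp start and Serpina3n hold none.

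Lbp had the smallest p of the 10 genes. Its probe is split on the genome, over chr2:158154142-158157684 (mm9, plus strand).
Lbp probe: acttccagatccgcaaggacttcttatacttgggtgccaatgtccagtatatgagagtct

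The level of Lbp was 10.98, 11.37 and 12.41 (lowest, median and highest) in Ref mice, 12.50, 13.32 and 13.67 in HFoleic mice and 11.22, 12.49 and 13.11 in HFepa mice. The HFoleic mice lay above all Ref mice, by a narrow margin between Ref 7 and HFoleic 1. Lbp was 3.39-fold higher in HFoleic than in Ref (1.76, SE 0.28, adjusted p = 0.00045), and 1.54 to 2.09 higher on the log2 scale within the slides. Ptx3, read at chr3:66029245-66029304 (mm9, plus strand), had levels of 6.06, 6.19 and 6.55 in Ref, 6.05, 6.38 and 6.89 in HFoleic and 6.01, 6.17 and 6.97 in HFepa mice. The 3 groups overlapped, with the highest HFoleic and HFepa mice above the highest Ref mouse. Its difference of 0.21 (95% confidence interval -0.10 to 0.51) was not called (adjusted p = 0.31). The Ptx3 signal was low, though well above background on every array. Over the alternative settings its difference ranged from 0.08 to 0.32 and was not called.

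Among the carriers of haem, iron and copper, Hp rose and Cp fell. Hp, read at chr8:112099045-112099104 (mm9, minus strand), had levels of 17.28, 17.56 and 17.78 in Ref mice, 17.80, 18.37 and 18.49 in HFoleic mice and 16.52, 17.86 and 18.20 in HFepa mice. The HFoleic mice lay above all Ref mice, with HFoleic 1 (17.80) just above Ref 2 (17.78). Hp was 1.65-fold higher (0.72, SE 0.22, adjusted p = 0.015). This call was lost with the processed signal (0.43, adjusted p = 0.11), with median centring (0.48, adjusted p = 0.075), without the mice high in testis genes (0.69, adjusted p = 0.088) and without those high in liver genes (0.73, adjusted p = 0.077).

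Cp was the only one of the 10 genes that fell. Its brightest probe lies at chr3:19889071-19889130 (mm9, plus strand).
Cp probe: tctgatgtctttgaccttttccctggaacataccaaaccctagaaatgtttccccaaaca

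With this probe the level of Cp was 12.19, 12.72 and 12.89 in Ref mice, 10.85, 11.13 and 11.56 in HFoleic mice and 10.83, 11.66 and 12.93 in HFepa mice. Every HFoleic mouse lay below every Ref mouse, whereas HFepa mice ran from the bottom of the HFoleic range to the top of the Ref range. Cp was 2.77-fold lower in HFoleic than in Ref (-1.47, SE 0.25, adjusted p = 0.00061). The other 4 Cp probes fell too, with differences of -0.87, -0.96, -0.99 and -1.30 (adjusted p = 0.0020, 0.0015, 0.0021 and 0.0011), without overlap between the groups, where 15.6% of all probes fell. The transcript accessions of the Cp probes in the file overlap in part, so the probes are not independent readings. Within slides the brightest probe differed by -1.57 to -1.40.

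Lcn2 had the widest spread of the 10 genes in Ref (SD 2.51) and HFoleic mice (SD 1.76), and Saa3 in HFepa mice (SD 2.12). Its brighter probe, at chr2:32240199-32240258 (mm9, minus strand), gave 8.24, 9.14 and 13.77 in Ref, 8.02, 9.37 and 13.03 in HFoleic and 7.86, 9.60 and 12.81 in HFepa mice. All groups overlapped almost completely, and within Ref the highest mouse was 46.3-fold above the lowest. The difference between HFoleic and Ref was -0.42 (95% confidence interval -2.60 to 1.76, adjusted p = 0.80). The second probe gave -0.24 (adjusted p = 0.88). With an interval this wide a change of moderate size was not detectable.

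The high Lcn2 values were those of the mice high in testis genes. In these 4 mice Lcn2 lay between 12.81 and 13.77, and in the other 16 between 7.86 and 11, without overlap. Prm1, a sperm protamine, lay between 9.65 and 10.88 in these 4 mice. Not every gene of the list followed, since Tnp2 stayed between 5.90 and 6.39 over all mice, Pgk2 between 5.22 and 6.44, and Dkkl1 was highest in Ref 2 (9.42). Of the epididymis list, 4 genes were tested. Among them Adam7 was highest in Ref 3 (10.59), and it was 8.45 in Ref 6 and 7.21 in HFoleic 5. It was also 8.62 in HFepa 2, whose Lcn2 was 10.17, but 5.16 in HFepa 4, whose Lcn2 was 12.81. In the remaining mice Adam7 was 6.05 or less. Without the 4 mice the Lcn2 difference was 0.56 in HFoleic vs. Ref, with the sign turned (adjusted p = 0.54). Whether RNA of other tissue makes up the Lcn2 signal was not tested.

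**Figure D3:**
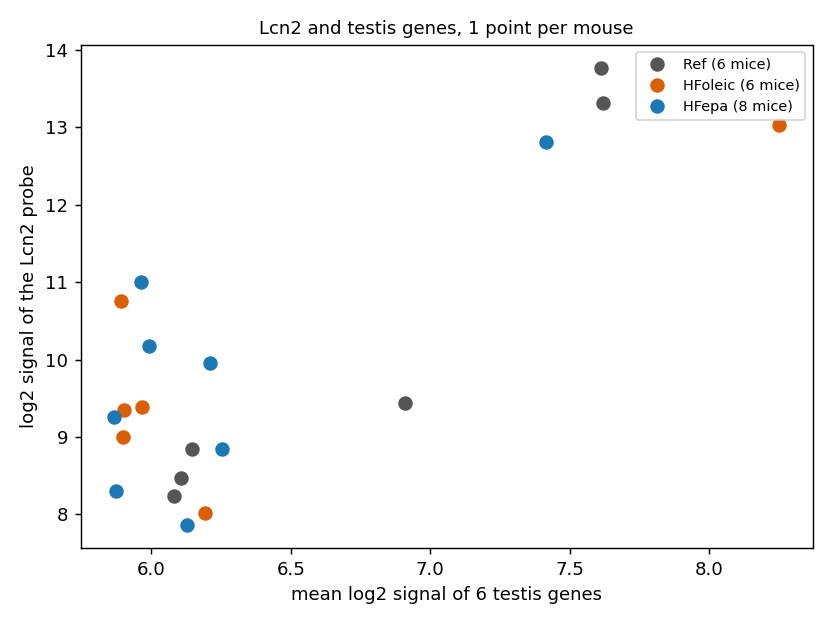
Log2 signal of the brighter Lcn2 probe (vertical axis) against the mean log2 signal of 6 testis genes (horizontal axis) in each of the 20 mice, coloured by group. The 4 mice whose testis genes lie above 7 have Lcn2 at 12.81 or more, and the other 16 have Lcn2 at about 11 or less.

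Of the genes for the carrier Orm1 and the protease inhibitor Serpina3n, the second rose. The accessions given for the Orm1 probe are those of Orm1 and of its paralog Orm2, so its signal can belong to either. It spans chr4:63007395-63009038 (mm9, plus strand).
Orm1 probe: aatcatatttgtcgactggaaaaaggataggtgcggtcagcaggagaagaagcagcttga

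The level of Orm1 was 14.00, 14.65 and 15.44 in Ref, 14.95, 15.20 and 15.37 in HFoleic and 14.64, 14.97 and 15.29 in HFepa mice. The HFoleic values all lay inside the upper part of the Ref range. The difference of 0.47 (SE 0.19) was not called (adjusted p = 0.059), but it was called with the authors' log2 table (0.51), with the slide as a block (0.53) and with array weights (0.52). It was smaller without the mice high in testis genes (0.22, adjusted p = 0.40) or in liver genes (0.27, adjusted p = 0.36), and with the replicate number as a block (0.39, adjusted p = 0.18). A separate Orm2 probe rose by a similar 0.50 (SE 0.18, adjusted p = 0.041). Serpina3n, read at chr12:105651918-105651977 (mm9, plus strand), had levels of 10.88, 11.35 and 12.17 in Ref, 11.66, 12.22 and 12.44 in HFoleic and 10.67, 11.75 and 12.26 in HFepa mice. HFoleic 1 lay inside the Ref range, and the other 5 HFoleic mice just above Ref 7. Serpina3n was 1.67-fold higher (0.74, SE 0.22, adjusted p = 0.017), a call lost without the mice high in testis genes (0.54, adjusted p = 0.16) or in liver genes (0.65, adjusted p = 0.093).

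In HFepa vs. Ref, a comparison that shares the Ref mice with the one above, Cp was the only one of the 10 genes called. By its brightest probe it was 1.93-fold lower (-0.95, SE 0.24, adjusted p = 0.041), with 7 of 8 HFepa mice below every Ref mouse and HFepa 3 above them all. By the other 4 probes, 4 to 7 of the 8 HFepa mice lay below every Ref mouse and 0 lay above them all. Of all genes, 1.03% rose and 1.42% fell. Of the 5 Cp probes 3 were called, as were 1.3% of all probes in that direction. The Cp call was near its threshold: it was kept in 7 of the 20 fits that left out 1 array, where the adjusted p ran from 0.0051 to 0.10, and it was lost with the slide as a block (adjusted p = 0.051) and without the mice high in testis genes (0.23) or liver genes (0.37).

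The differences of the other genes in HFepa vs. Ref were not called. Saa3 stood at 2.07 (95% confidence interval 0.32 to 3.82, adjusted p = 0.17), with 6 of 8 HFepa mice above every Ref mouse and HFepa 3 below them all. Lbp stood at 0.88 (0.33 to 1.42, adjusted p = 0.072) and Saa1 at 0.65 (-0.20 to 1.5, adjusted p = 0.38). The intervals of Saa2, Hp, Orm1, Ptx3, Serpina3n and Lcn2 all included 0. Leaving out HFepa 3 brought Saa3 (2.58, adjusted p = 0.045) and Lbp (1.04, adjusted p = 0.015) past the threshold. The gain was general, since 2513 of the 39390 probes were called in that fit, against 892 with all arrays.

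**Figure D4:**
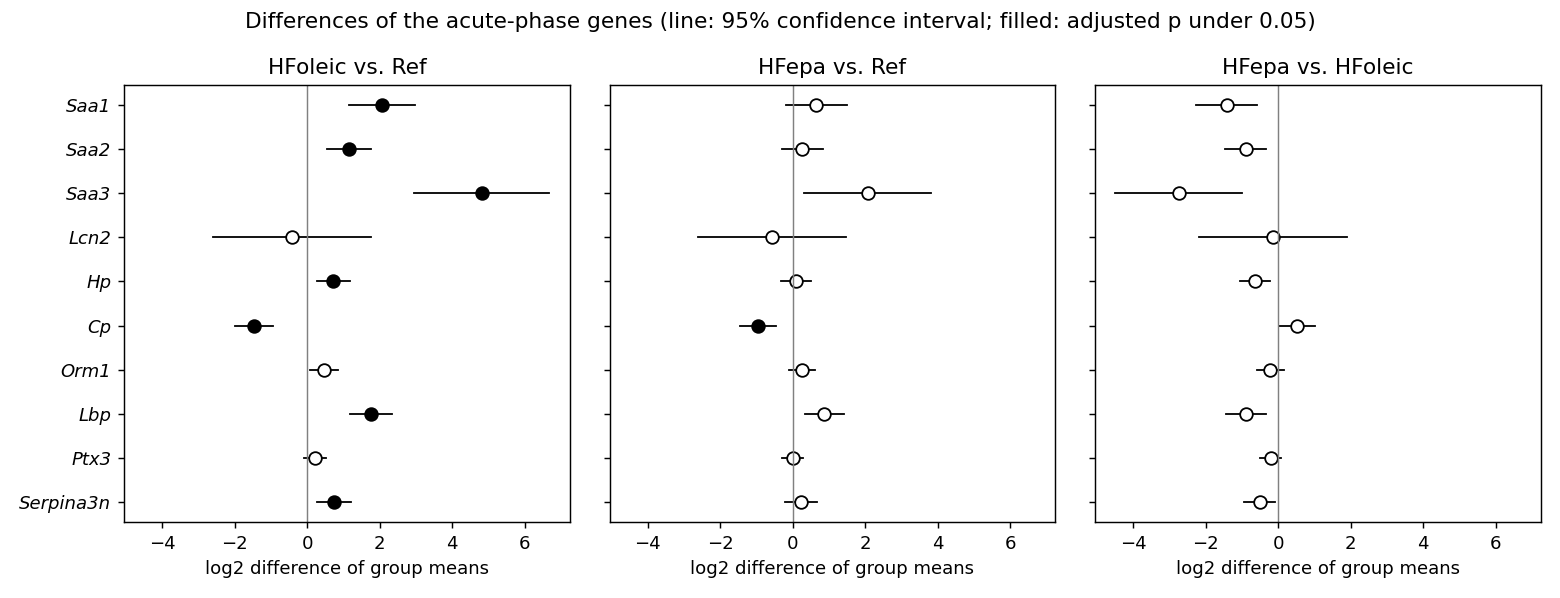
Log2 difference of group means (horizontal axis) with its 95% confidence interval for each acute-phase gene (rows) in the 3 comparisons, 1 panel each (HFepa vs. HFoleic on the right); filled points have an adjusted p under 0.05. There are 7 filled points on the left, 1 (Cp) in the middle and 0 on the right, where 9 of 10 points lie below 0.

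In HFepa vs. HFoleic, which shares its mice with both comparisons above, 0 of the 10 genes were called by limma, as were 0% of all genes. At an unadjusted p under 0.05, 6 of the 10 lay lower in HFepa (Saa1, Saa2, Saa3, Hp, Lbp and Serpina3n) and 1 higher (Cp), against 10% and 10.8% of all genes. Saa3 had the lowest difference of all 25618 genes, at -2.74 (95% confidence interval -4.49 to -0.99, adjusted p = 0.13), a level 6.69-fold lower. Saa1 stood at -1.42 (-2.27 to -0.57, adjusted p = 0.12), Lbp at -0.88 (-1.43 to -0.34, adjusted p = 0.12) and Hp at -0.63 (-1.05 to -0.21, adjusted p = 0.13). These values did not pass the test, and the intervals leave room for differences from small to large. Single mice decided the count: 5 of the 10 were called without HFepa 1, where 7.72% of all genes were, and 4 without HFoleic 1, where 4.36% were. With array weights 6 were called, and 12.1% of all genes. With the slide as a block Lbp was called (-0.99, SE 0.25, adjusted p = 0.041), as were 3.17% of all genes.

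Some mice stood at the edge of their group in many of the genes, each read by its brightest probe. HFoleic 1 was the lowest of its group in 9 of the 10 genes and the highest in Cp, and HFoleic 4 was the highest in 6. Among HFepa mice, HFepa 3 was the lowest in 7 genes and the highest in Cp. HFepa 1 and HFepa 6, with Saa3 at 13.53 and 13.32, lay above HFoleic 7 (13.07), the second lowest mouse of its group, and the other 6 had Saa3 at 7.05 to 11. Ref 7 was the highest Ref mouse in 5 genes (Saa3, Orm1, Lbp, Ptx3 and Serpina3n) and the lowest in Cp.

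Genes of lipid-associated macrophages, cells that gather around dying adipocytes, put some of the same HFoleic and HFepa mice at the edges of their groups. The list holds 10 genes, Trem2, Gpnmb and Spp1 among them. All 10 rose in HFoleic vs. Ref, and 8 of 12 general macrophage genes rose while 1 fell, where 15.2% of all genes rose and 16.7% fell. The mean log2 signal of the 10 genes was 9.14 to 10.17 in Ref, 11.77 to 13.48 in HFoleic and 9.59 to 13.84 in HFepa mice. HFoleic 1 was again the lowest of its group (11.77), HFepa 3 the lowest of its own (9.59), and HFepa 1 and HFepa 6 the highest (13.84 and 13.08). Among Ref mice the highest was Ref 2 (10.17) and not Ref 7 (9.77). What part these cells have in the levels of the acute-phase genes was not tested. The neutrophil list spanned 8.03 to 8.53 over all mice. Within HFoleic its mean was lowest in HFoleic 1 (8.18) and highest in HFoleic 4 (8.45). Within HFepa it was highest in HFepa 6 (8.53) and lowest in HFepa 7 (8.15). In HFoleic vs. Ref 1 of the 10 tested neutrophil genes rose and 1 fell, beside 15.2% and 16.7% of all genes. The mean of 12 fibroblast and progenitor genes was 12.50 to 12.81 in Ref, 12.74 to 13.18 in HFoleic and 12.40 to 12.88 in HFepa mice. HFoleic 1 was the lowest of its group in this list too and HFoleic 4 the highest. In HFoleic vs. Ref 4 of the 12 genes rose and 2 fell, beside the same shares of all genes. The part of these cells was not tested either.

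**Figure D5:**
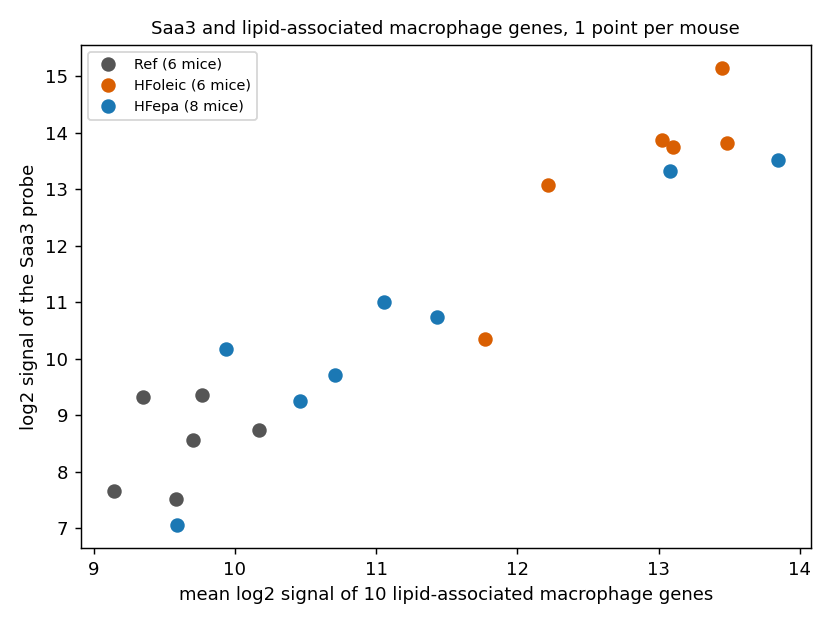
Log2 signal of the Saa3 probe (vertical axis) against the mean log2 signal of 10 lipid-associated macrophage genes (horizontal axis) in each mouse, coloured by group. Ref mice lie at 9.14 to 10.17 on the horizontal axis, HFoleic mice at 11.77 to 13.48, and HFepa 1 and HFepa 6 (13.84 and 13.08) lie beside the HFoleic mice.

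The liver list did not separate the groups, with ranges of 7.93 to 10.36 in Ref, 8.08 to 11.46 in HFoleic and 8.50 to 10.75 in HFepa mice. HFoleic 4, the highest mouse in Saa1, Saa2, Saa3, Hp, Lbp and Serpina3n, had the lowest liver level of its group (8.08). In HFepa the order was otherwise. HFepa 6, the highest of that group in Saa2, Orm1, Lbp and Serpina3n, had a high liver level (10.41), and HFepa 3, the lowest in 7 genes, a low one (8.68). Without the 5 mice high in liver genes, 1 of the 12 liver genes, Alb, was called in HFoleic vs. Ref, and it was lower. Saa3 then differed by 4.51 (adjusted p = 0.017), whereas Hp (0.73, adjusted p = 0.077) and Serpina3n (0.65, adjusted p = 0.093) were not called. The part of liver RNA in these levels was not tested.

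For the 3 genes with the smallest p, the genes most like them were taken by Pearson's r over the 20 arrays after the mean of each group was removed. Nearest to Lbp were Pqlc3 (r = 0.95), Col6a2, a collagen VI chain, Mxra8, Nln and Pfkfb4. Nearest to Cp were Drd1 (r = 0.95), Prpf6, Net1, Snhg3 and 2810013P06Rik. Nearest to Saa3 were 2 transcripts that the array names only by position, then Tph2 (r = 0.95), a tryptophan hydroxylase, H2afz and Ryr1. These values describe the arrays, which share the mouse, its mix of tissues and its slide.

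Of the 11 cytokine ligands of the acute phase tested, 3 were called in HFoleic vs. Ref, where 31.8% of all genes were. Among them Lep rose (1.13, adjusted p = 0.00074) and Ctf1 and Clcf1, both ligands of the interleukin-6 family, fell. The other 8 were not called, among them the classical inducers Il6 (0.07), Il1b (-0.17) and Tnf (0.28, adjusted p = 0.056), named here for that role. Their signals were low, with means in Ref and HFoleic of 5.82 and 5.89 for Il6, 6.76 and 6.58 for Il1b and 6.55 and 6.82 for Tnf. These differences thus do not show that the inducers were unchanged. Of 16 receptor genes 6 rose and 1 fell, and Il1rn, the secreted antagonist of the interleukin-1 receptor, rose most (3.82, SE 0.65, adjusted p = 0.00056). Tnfrsf1b (1.24) and Lifr (0.37) rose as well. Of 24 signalling and transcription factor genes 4 rose and 7 fell. Cebpd, a C/EBP factor of the acute phase, fell by 1.46 (adjusted p = 0.0016), Tyk2 rose by 0.57 and Nfkb2 by 0.43.

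Among 21 genes for receptors and binding partners of these proteins 8 rose and 2 fell, led by Ptafr (1.54), Fcgr3 (1.46) and Fcgr1 (1.58). The last 2 are Fc receptors that also bind pentraxins and are expressed by macrophages. Beside the counts of this and the following lists, 15.2% of all genes rose and 16.7% fell. Of 32 other acute-phase genes tested 4 rose, among them the complement genes Cfb (0.79), Serping1 (0.70) and C3 (0.82), and 1 fell. Of 10 other Serpina3 genes 5 rose and 0 fell, with Serpina3f at 1.24, Serpina3a at 1.34 and Serpina3h at 0.45, and probes of this family may share signal. Of 9 genes of negative acute-phase proteins, whose plasma level falls in inflammation, Trf (transferrin) fell by 0.42 (adjusted p = 0.0013), and Rbp4 (-0.32, adjusted p = 0.058) and Alb (-0.89, adjusted p = 0.20) were not called. Of 17 iron genes 6 rose and 2 fell, led by Slc11a1 (1.65), Hmox1 (1.26) and Ftl1 (0.32). Of the genes of these lists named here as called in HFoleic vs. Ref, Orm2, Clcf1, C3 and Ftl1 were not called without the mice high in testis genes or without those high in liver genes, and Ctf1 and Lifr were not called without the latter.

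Over these lists 35.6% of 135 genes were called in HFoleic vs. Ref, near the 31.8% of all genes. These were 48 genes, and the count was 22 without the mice high in testis genes and 26 without those high in liver genes, where 18.1% and 17.4% of all genes were called. In HFepa vs. Ref 1 of 135 was called, where 2.46% of all genes were. It was Trf, which fell by 0.34 (adjusted p = 0.032). This call was lost without the mice high in testis genes (adjusted p = 0.18) or in liver genes (0.29). In HFepa vs. HFoleic 0 of 135 were called.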

How the data were processed

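The members and the gene lists were chosen with earlier results of these data known. RNA of VAT was labelled with Cy3 and read on 1-colour Agilent arrays. Per the file headers, the authors extracted spot intensity values with Agilent Feature Extraction 10.10.1.1, and the median intensity used here was deposited on a linear scale without normalization. A table of log2 values that the authors had filtered and quantile normalized was deposited as well. It holds 38168 probes, correlated at 0.9997 or more with each array's own log2 median signal and served as an alternative. Groups came from the labels.

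Control spots were left out, and flagged spots were missing on their array. A probe needed to be well above background on 6 or more arrays to be tested. Median signals were put on the log2 scale, quantile normalized between arrays and averaged per probe. A model of 1 mean per group over the 20 arrays was fitted with limma 3.58.1 in R 4.3.3, with no covariate, after tests on simulated data. A gene was represented by its tested probe of highest mean. All 10 genes were named, with at most the 3 genes of smallest p in HFoleic vs. Ref in each other list. Genes outside that rule, Orm2, Il6, Il1b, Tnf, Prm1, Tnp2, Pgk2, Dkkl1, Adam7, Trem2, Gpnmb and Spp1, were named for their role or after their values were seen. The number of arrays limits the precision. Alternatives covered background correction, scaling, filters, marked spots, the slide or replicate number as a block, array weights, eBayes options, the compared groups only, the mean of a gene's probes, and each array left out. The mice high in testis or liver genes were left out after seeing the data. Promoter windows are those of RefSeq (GRCm38.p6), and probe positions those of the files (mm9). RT-qPCR was not used here. Plots were drawn with matplotlib 3.10.9.

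The marker lists not described above spanned, as mean log2 signal over the 20 mice, 6.47 to 9.76 for mesothelium, 11.85 to 12.46 for endothelium, 7.72 to 8.53 for T cells and 6.65 to 8.16 for B cells.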

Additional observations from a re-analysis of the deposited data

Results flagged for a closer look

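Of 30 sets of values (10 genes in 3 groups), 4 held a mouse far from the rest of its group. Chance gives about 1 in 20 for a single set. The 30 sets share their mice and are not independent, so the count cannot be set against that share. The measure is the gap to the nearest mouse as a share of the range of the group. HFoleic 1 stood below its group in Hp (17.80 against 18.31 for the next mouse, a share of 0.749), in Lbp (12.50 against 13.26, 0.653) and in Serpina3n (11.66 against 12.18, 0.662). HFepa 2 stood above its group in Ptx3 (6.97 against 6.28, 0.718). Without HFoleic 1 the differences in HFoleic vs. Ref were larger for Hp (0.82) and Saa3 (5.41).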

How the results depend on the processing

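In HFoleic vs. Ref, Saa1, Saa2, Saa3, Lbp and Cp kept direction and call under all alternatives and in all 20 fits without 1 array; 5 to 8 of the 10 genes were called. All probes called in that comparison fell from 12147 to 6728 without the mice high in testis genes and 6494 without those high in liver genes, and list genes called from 48 to 22 and 26.

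In HFepa vs. Ref the 1 call among the 10 genes (Cp) became 0 with no filter, with the slide as a block, in the compared groups only and without the mice high in testis or liver genes, and 2 with array weights (0 to 3 without 1 array). All probes called there, 892 at first, were 575 with median centring, 583 with no filter, 1459 with array weights, 140 in the compared groups only and 0 without the mice high in testis or liver genes (130 to 2513 without 1 array). List genes called were 2 with the processed signal or the filter on a whole group, 5 with array weights and 0 in the compared groups or without those mice (0 to 7 without 1 array).

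In HFepa vs. HFoleic 1 of the 10 genes (Lbp) was called with the slide as a block and 6 with array weights (0 to 5 without 1 array). All probes called, 1 at first, were 4575 with array weights, 1297 when the slide was a block and 0 with the processed signal, normexp, median centring, the compared groups only and without the mice high in testis or liver genes (0 to 2867 without 1 array). List genes called were 23 with array weights and 4 when the slide was a block (0 to 17 without 1 array). The causes were not tested.

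Replicate numbers are shared between groups, but same-numbered mice did not deviate together (correlations of -0.47 to 0.14, -0.43 to 0.15 and -0.59 to 0.56), so they were not treated as pairs. With the replicate number as a block, 7873 probes were called in HFoleic vs. Ref, 25 in HFepa vs. Ref and 0 between the lineages, and 0 of the 10 genes and 0 list genes in HFepa vs. Ref.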
